A study of Mus musculus with 6 samples.

Results

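The genes described here are 9 regulators of muscle stem cells and of muscle formation, *Pax7*, *Pax3*, *Myf5*, *Myod1*, *Myog*, *Myf6*, *Mymk*, *Mef2a* and *Mef2c*, of 18089 genes in the table. They were chosen by name, and a gene's value is the sum over its transcripts. Bulk RNA-seq libraries were made from ischemic hindlimb muscle of male C57BL/6 mice aged 8 to 10 weeks, 3 from WT mice and 3 from GPR174-KO mice (Gpr174-/Y, lacking the X-linked receptor gene in every cell). All 6 libraries were taken 7 days after hindlimb ischemia (HLI), in which the femoral artery of 1 leg was tied and a piece removed, and no uninjured muscle is among them. Library totals were 18417077 to 18695013 counts in WT and 19173036 to 19394469 in GPR174-KO. *Gpr174* had 8, 2 and 5 counts in the WT libraries and 1, 0 and 0 in the GPR174-KO libraries.

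Satellite cells, the stem cells of skeletal muscle, lie under the sheath of the muscle fibre and carry the transcription factor PAX7. After injury they divide, switch on MYF5 and MYOD1, and as myoblasts then express myogenin (*Myog*), leave the cell cycle and fuse into new fibres with the membrane protein myomaker (*Mymk*). MYF5, MYOD1, myogenin and MRF4 (*Myf6*) are the myogenic basic helix-loop-helix factors, which bind E-boxes (CANNTG), and the MEF2 proteins act with them at muscle genes through an A/T-rich motif.

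The promoter of *Myog* is shown because *Myog* and *Mymk* had the largest increases among the 9 genes. That of *Mef2a* is shown because it held the only match to the 10-base MEF2 pattern searched for near a start site. The search covered the 5 members with a promoter in the RefSeq table (*Pax7*, *Myf5*, *Myog*, *Mef2a* and *Mef2c*). MEF2 sites that depart from the pattern would be missed. The *Myog* stretch holds an A/T-rich run, ctatatttat, that was not a match and stays in lower case. The lack of a match in *Myog* therefore does not mean that it has no MEF2 site. The sequences are from RefSeq on GRCm38.p6, 5′ to 3′, with matched motifs in capitals. The *Myog* stretch is chr1:134289754-134290003 on the plus strand, the 250 bases before the start site. The *Mef2a* stretch is chr7:67372851-67373108 on the minus strand and runs on past the start site to the end of the motif.
Myog: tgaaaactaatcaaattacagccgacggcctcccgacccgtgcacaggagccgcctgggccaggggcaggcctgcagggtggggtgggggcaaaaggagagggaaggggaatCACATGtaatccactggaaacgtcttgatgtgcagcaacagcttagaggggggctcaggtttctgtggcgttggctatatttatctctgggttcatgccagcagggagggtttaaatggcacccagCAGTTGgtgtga
Mef2a: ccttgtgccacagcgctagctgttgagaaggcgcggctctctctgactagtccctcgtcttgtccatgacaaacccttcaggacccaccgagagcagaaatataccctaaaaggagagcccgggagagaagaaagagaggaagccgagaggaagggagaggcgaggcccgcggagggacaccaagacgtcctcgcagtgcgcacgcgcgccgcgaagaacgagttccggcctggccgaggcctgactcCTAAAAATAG
Each window searched held 250 bases before and 50 after the start site, on both strands. *Myog* held the E-boxes CACATG, starting 138 bases before the start site (position -138), and CAGTTG, at position -12. *Mef2a* held CTAAAAATAG, a match to the MEF2 motif, at position -2. *Mef2c*, which has several windows, held the E-boxes CAAGTG (position -234) and CATATG (-100) in the same window and CAGATG (-245) in another. An E-box was present in 72.3% of all 32851 promoters and a match to the MEF2 pattern in 3.19%. No match to either was found in the windows of *Pax7* and *Myf5*. A match is a run of letters and not a measured binding site.

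*Myog* and *Mymk* had by far the largest differences of the 9 genes and were the only members past both an adjusted p of 0.05 and a log2 fold change of 1. Levels are in CPM, a gene's counts relative to the library size as scaled by TMM, and are given for replicates 1, 2 and 3 in that order. *Myog*, the factor of the step from dividing myoblast to myocyte, was at 71.1, 96.2 and 130.4 CPM in WT and at 285, 266 and 247 CPM in GPR174-KO. *Mymk*, the fusion protein of the myoblast membrane, was at 61.9, 80.8 and 107 CPM in WT and at 233, 229 and 226 CPM in GPR174-KO. For both genes the lowest GPR174-KO library lay far above the highest WT library, and the WT libraries were the more spread out. *Myog* was 2.68-fold higher in GPR174-KO (log2 fold change 1.42, SE 0.21, adjusted p = 0.00202 by edgeR's quasi-likelihood test with Benjamini-Hochberg adjustment over all genes). *Mymk* was 2.76-fold higher (log2 fold change 1.46, SE 0.18, adjusted p = 0.00135 by the same test).

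In these muscle pieces, more cells that carry a transcript and more transcript per cell cannot be told apart. Of all 14395 genes tested, 54.6% passed an adjusted p of 0.05, 27% higher and 27.6% lower in GPR174-KO, and 8.28% were also past a log2 fold change of 1. Against that background 6 of the 8 members tested passed, 5 of them higher and 1 lower, and 2 were past both thresholds. Groups did not overlap in CPM for 7 of the 8, where 65.6% of all genes tested showed no overlap. The number of members called is therefore not read as particular to them, and the sizes and directions below are each gene's own. *Pax3* was removed by the filter on low counts. The higher share among all calls depended on the scaling, with 49.5% of called genes higher after TMM and 78.4% after scaling to total counts, which moved the median of all genes by 0.27 on the log2 scale.

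**Figure D1:**
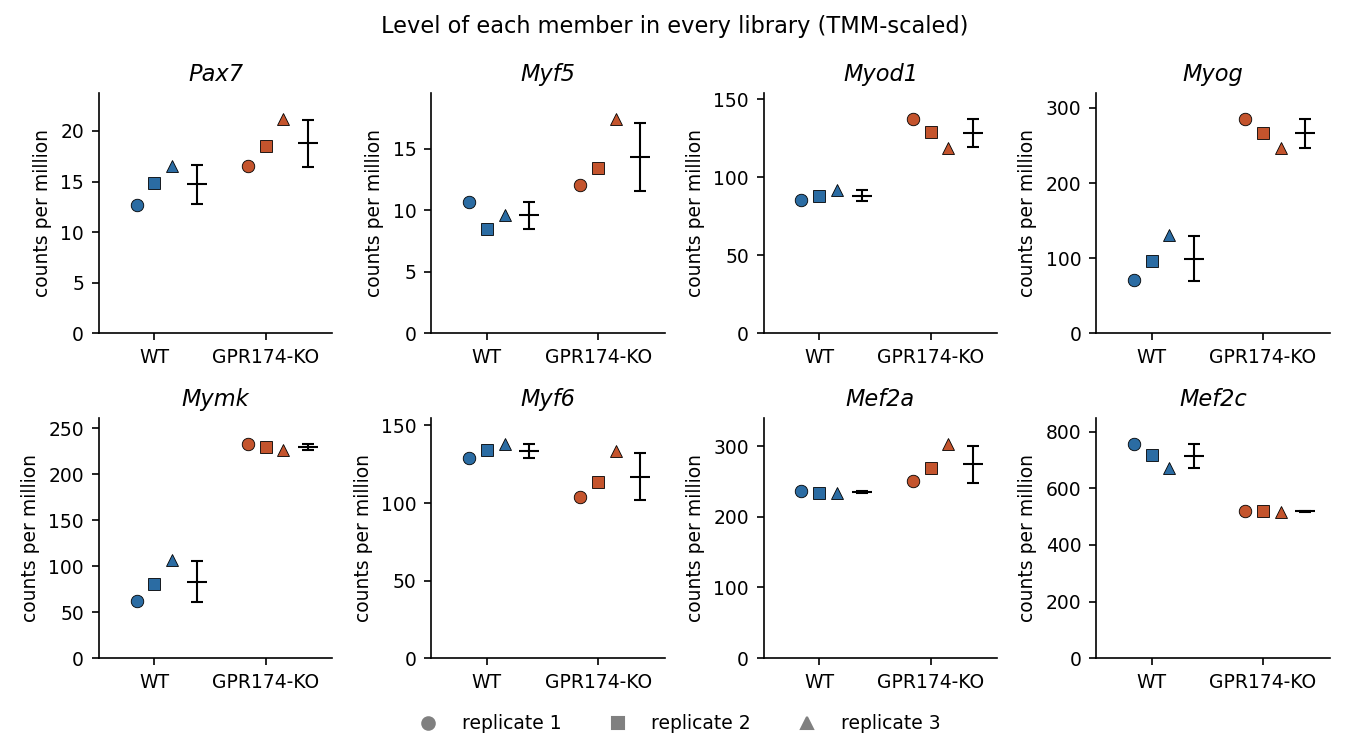
Level of the 8 tested members in each library, in TMM-scaled CPM on axes that start at 0, with 3 WT libraries in blue and 3 GPR174-KO libraries in orange. The black mark and bar are the group mean and SD (n = 3). *Myog* and *Mymk* separate widely, *Mef2c* lies lower in GPR174-KO, and only *Myf6* overlaps between groups.

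The genes of the earlier steps differed less. *Pax7*, the factor that defines the satellite cell, was at 12.7, 14.9 and 16.6 CPM in WT and at 16.6, 18.6 and 21.2 CPM in GPR174-KO. The highest WT library and the lowest GPR174-KO library nearly touched. The log2 fold change was 0.35 (SE 0.13) and the adjusted p was 0.0515 by edgeR's test, so *Pax7* did not pass. It passed without WT replicate 3 (log2 fold change 0.45, edgeR adjusted p = 0.0131) or without GPR174-KO replicate 1 (0.43, edgeR adjusted p = 0.0425). It also passed with a replicate block (0.35, edgeR adjusted p = 0.0134), after scaling to total counts (0.62, edgeR adjusted p = 0.0109) and in limma fits of FPKM (0.51 and 0.65, limma adjusted p = 0.00676 and 0.00758). It did not pass without WT replicate 1 (0.26, edgeR adjusted p = 0.110) or WT replicate 2 (0.36, 0.122). Nor did it without GPR174-KO replicate 2 (0.36, edgeR adjusted p = 0.114) or replicate 3 (0.25, 0.151). In all, *Pax7* passed in 9 of 20 alternatives. *Pax3*, the paralog that acts in embryonic muscle precursors, had 3, 0 and 0 counts in WT and 1, 3 and 2 in GPR174-KO. No library exceeded the floor of 3 counts, which corresponds to 0.155 to 0.163 CPM, and no difference in *Pax3* could be detected at this depth.

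*Myf5*, expressed in satellite cells committed to muscle and in dividing myoblasts, was at 10.7, 8.51 and 9.61 CPM in WT. In GPR174-KO it was at 12.1, 13.4 and 17.4 CPM, above every WT library. It was 1.49-fold higher (log2 fold change 0.58, SE 0.16, edgeR adjusted p = 0.0190), and without WT replicate 2 the call was lost (0.50, edgeR adjusted p = 0.0749). *Myod1*, the determination factor of the myoblast, was at 85.2, 88.3 and 91.7 CPM in WT and at 137, 129 and 119 CPM in GPR174-KO. The groups were well apart, with little spread in either. *Myod1* was 1.45-fold higher (log2 fold change 0.54, SE 0.07, edgeR adjusted p = 0.00139).

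*Myf6*, which encodes MRF4 and is the myogenic factor most abundant in mature fibres, was at 129, 134 and 138 CPM in WT and at 104, 114 and 133 CPM in GPR174-KO. The groups overlapped, and GPR174-KO replicate 3 lay among the WT libraries. The log2 fold change was -0.19 (SE 0.10, edgeR adjusted p = 0.125), with 0.08 after scaling to total counts, so no direction is given for *Myf6*. Without GPR174-KO replicate 3 the value was -0.30 and passed (edgeR adjusted p = 0.0206). *Myf5* and *Myf6* are neighbours in the genome with 0 protein-coding genes between them in GENCODE M21.

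The 2 MEF2 genes on the list moved in opposite directions. *Mef2c*, the MEF2 gene with a large role in fibre type and sarcomere genes, was at 757, 717 and 673 CPM in WT. It was at 521, 519 and 516 CPM in GPR174-KO, below every WT library and with almost no spread. It fell to 0.725 of the WT level (log2 fold change -0.46, SE 0.07, edgeR adjusted p = 0.00249). The size of the fall depended on the scaling. *Mef2c* stayed lower, by -0.19, after scaling to total counts (edgeR adjusted p = 0.0345). In TPM, a per-length scale, it was at 203.7, 200.8 and 199.4 in WT and at 187.1, 192.1 and 198.6 in GPR174-KO. On that scale the groups nearly touched. *Mef2a* was at 237, 234 and 234 CPM in WT and at 251, 268 and 303 CPM in GPR174-KO. It was 1.17-fold higher (log2 fold change 0.22, SE 0.08, edgeR adjusted p = 0.0487). This call lay at the threshold and was lost without WT replicate 1 (edgeR adjusted p = 0.0677), WT replicate 2 (0.141), GPR174-KO replicate 2 (0.111) or GPR174-KO replicate 3 (0.113). It was also lost with RLE scaling (edgeR adjusted p = 0.0516) and with a replicate block (edgeR adjusted p = 0.0857), whereas after scaling to total counts the log2 fold change was 0.50 (edgeR adjusted p = 0.00363). *Lysmd4* overlaps *Mef2a* on the other strand, so some reads could come from either gene if strand was not used in counting.

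**Figure D2:**
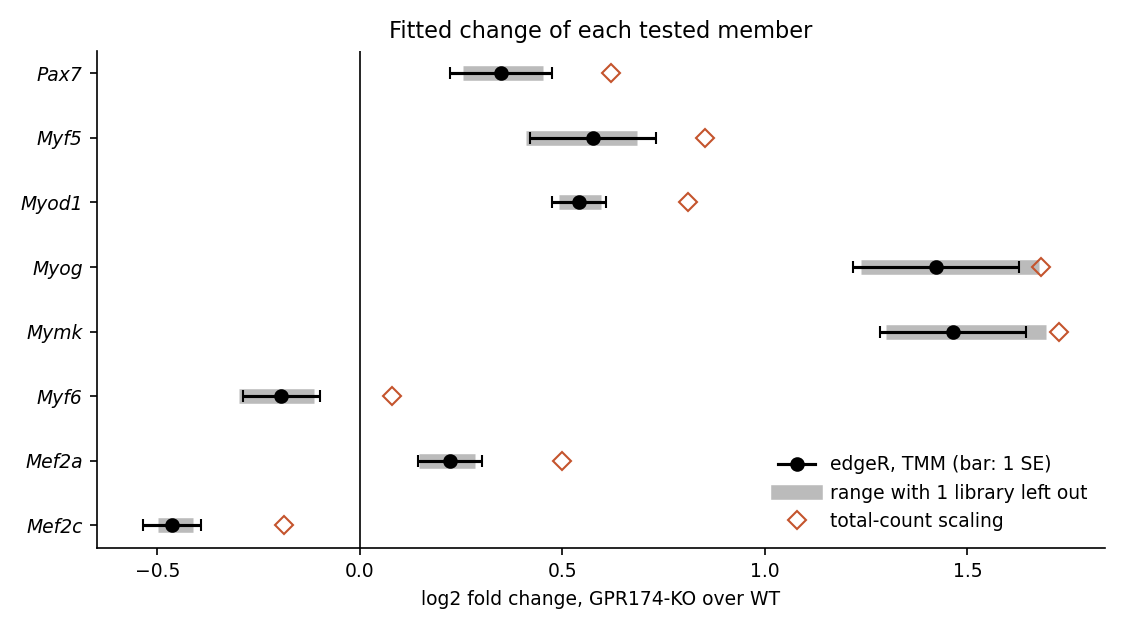
Fitted log2 fold change of each tested member, GPR174-KO over WT. Black points are edgeR estimates with 1 SE, grey bands span the values with each of the 6 libraries left out in turn, and open diamonds are the values after scaling to total counts. *Myf6* is the member whose diamond lies on the other side of 0.

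The paralogs and partners that were not on the list gave a similar picture of unequal change. *Mymx*, the small fusion protein that acts with myomaker, was at 4.79, 6.25 and 10.4 CPM in WT and at 25.2, 26.8 and 25.2 CPM in GPR174-KO. All GPR174-KO libraries lay above all WT libraries, and *Mymx* was 3.58-fold higher (log2 fold change 1.84, SE 0.24, edgeR adjusted p = 0.00147). *Mef2d*, the third MEF2 gene of muscle, fell by 0.26 on the log2 scale (edgeR adjusted p = 0.0142), but the value turned to 0.02, with the sign reversed, after scaling to total counts, and the call was lost without WT replicate 2 (edgeR adjusted p = 0.0673) or GPR174-KO replicate 2 (0.0690). *Mef2b*, removed by the filter, had 8, 8 and 5 counts in WT and 1, 1 and 3 in GPR174-KO. Fitted without the filter, *Mef2b* was lower in GPR174-KO (edgeR adjusted p = 0.0103), and no fold is given because no GPR174-KO library exceeded the floor of 3 counts.

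Per-length levels put the factors in order. Values scaled for transcript length and library size (FPKM) averaged over the 6 libraries were 134 for *Myog*, 126 for *Mymk*, 104 for *Myf6*, 101 for *Mef2c*, 61.4 for *Myod1*, 46.8 for *Mef2a*, 5.95 for *Myf5*, 3.23 for *Pax7* and 0.025 for *Pax3*. TPM, the other per-length scale of the table, gave the same order in all 9 places. The order differed by genotype at the top. In WT it ran *Mef2c* (107 FPKM), *Myf6* (101), *Myog* (63.6) and *Mymk* (58.1), and in GPR174-KO it ran *Myog* (204 FPKM), *Mymk* (193), *Myf6* (107) and *Mef2c* (94.5). The ranges of some neighbours overlapped across the libraries of a group. In WT, *Myf6* at 93.5 to 109 FPKM overlapped *Mef2c* at 105 to 109 FPKM. Also in WT, *Myog* at 43.3 to 86.8 FPKM, *Mymk* at 41.4 to 77.3 FPKM and *Myod1* at 41.2 to 48.4 FPKM all overlapped each other. Within every WT library, though, their order was *Myog*, *Mymk*, *Myod1*. They were at 43.3, 41.4 and 41.2 FPKM in replicate 1 and at 60.8, 55.7 and 44.2 FPKM in replicate 2. In replicate 3 they were at 86.8, 77.3 and 48.4 FPKM. In GPR174-KO, *Myf6* at 92.9 to 124 FPKM overlapped *Mef2c* at 93.0 to 95.9 FPKM, and *Myog* at 194 to 215 FPKM overlapped *Mymk* at 192 to 195 FPKM. *Myod1*, *Mef2a*, *Myf5* and *Pax7* held the next places in both genotypes. The satellite cell genes *Pax7* and *Myf5* were at a few FPKM in every library.

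Ratios between 2 members within a library do not depend on the scaling between libraries. For each of 7 pairs the log2 ratio of counts was compared by an exact permutation test, two-sided, in which 3 against 3 libraries cannot give a p below 0.1, so no pair could pass 0.05. The ratio of *Myog* to *Pax7* counts was 5.59, 6.46 and 7.86 in WT and 17.2, 14.3 and 11.7 in GPR174-KO. The groups did not overlap, with a log2 difference of 1.11 (exact p = 0.1, adjusted 0.175). The ratio of *Myog* to *Myod1* counts was 0.834, 1.09 and 1.42 in WT and 2.07, 2.06 and 2.08 in GPR174-KO. The log2 difference was 0.93 (exact p = 0.1, adjusted 0.175). The 3 GPR174-KO libraries held nearly 1 value (SD of the log2 ratio 0.0074) while the WT libraries varied (SD 0.39). So small a spread is taken up below with the order of the replicates.

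By contrast, *Mymk* and *Myog* kept close proportions. Their ratio was 0.871, 0.839 and 0.819 in WT and 0.817, 0.862 and 0.917 in GPR174-KO, with overlapping groups, a log2 difference of 0.04 and group SDs of 0.04 in WT and 0.08 in GPR174-KO (exact p = 0.7). *Myod1* to *Pax7* and *Myf5* to *Pax7* also overlapped between groups, with log2 differences of 0.19 and 0.21 (exact p = 0.4 for each). *Myf6* to *Myog* counts were 1.82, 1.40 and 1.06 in WT and 0.364, 0.427 and 0.540 in GPR174-KO, so *Myf6* had the more counts in every WT library and *Myog* in every GPR174-KO library (log2 difference -1.67, exact p = 0.1). *Mef2c* to *Mef2a* counts were 3.20, 3.06 and 2.88 in WT and 2.08, 1.93 and 1.70 in GPR174-KO, again without overlap (log2 difference -0.68, exact p = 0.1).

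**Figure D3:**
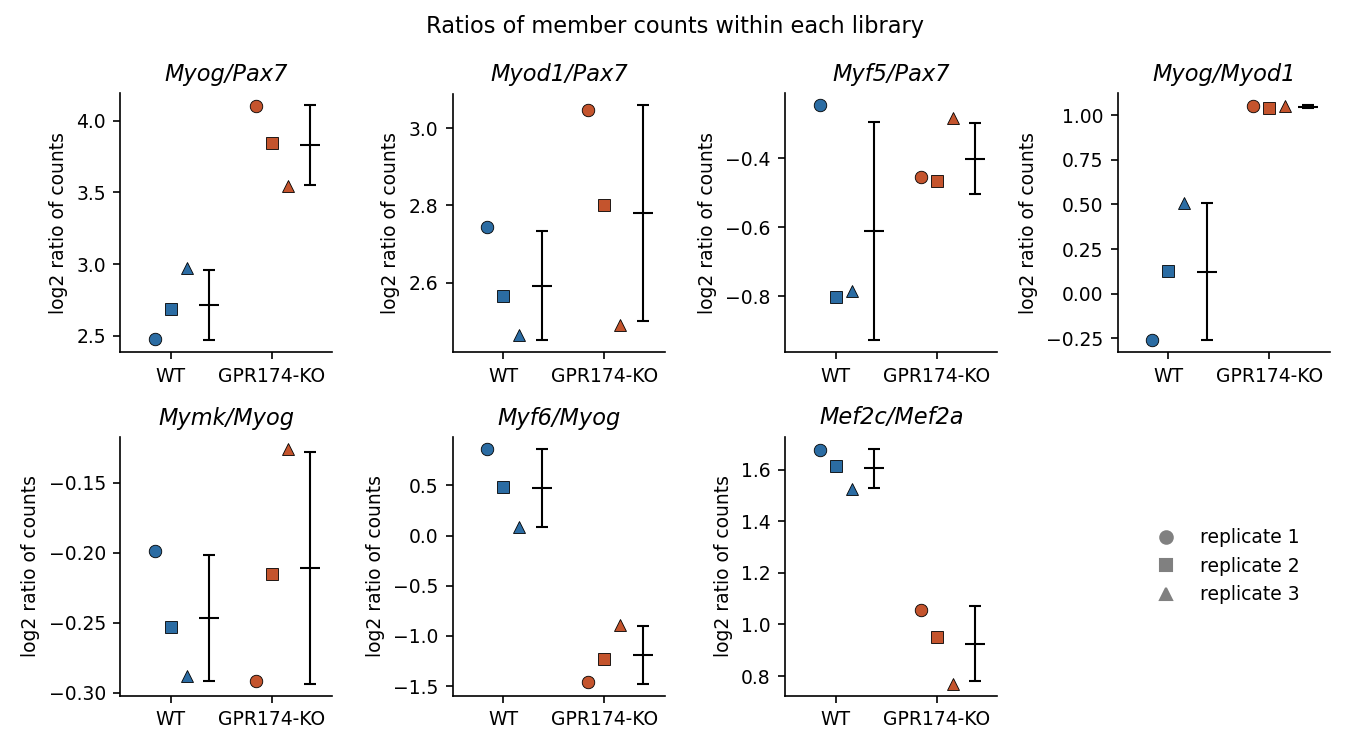
Log2 ratio of the counts of 2 members in each library for the 7 pairs, with WT in blue, GPR174-KO in orange and the group mean and SD (n = 3) in black. Each panel has its own axis, which does not start at 0. Myog/Pax7, Myog/Myod1, Myf6/Myog and Mef2c/Mef2a separate the groups, and the other pairs overlap.

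Several members have more than 1 transcript in the table, and reads shared by transcripts of a gene were divided between them by estimation, so these values are uncertain. *Mymk* has 2 transcripts, both higher in every GPR174-KO library than in any WT library. The main one, NM_025376.3, had 943, 1332 and 1901 counts in WT and 4677, 4574 and 4513 in GPR174-KO. Of the 10 *Mef2a* transcripts 4 had all GPR174-KO libraries above all WT libraries and 0 had all below. The largest difference in counts was in NM_001033713.2, with 1130, 744 and 1088 counts in WT and 1981, 1850 and 1819 in GPR174-KO. A second, NM_001291195.1, made up 8.98, 6.88 and 6.72% of *Mef2a* counts in WT and 15.6, 13.9 and 14.4% in GPR174-KO. Of the 26 *Mef2c* transcripts 2 were above and 3 below without overlap, and no single transcript held over 14% of the gene's counts. For *Pax7* 1 of 4 transcripts did not overlap, XM_006538631.2, with 161, 166 and 149 counts in WT and 265, 267 and 339 in GPR174-KO. These are unscaled counts and were not tested.

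Other genes of the satellite cell and of the steps to the fibre were taken as 6 lists. The median log2 fold change of all genes tested was 0.0037, and each list is set beside it and beside the 27% of genes called higher and 27.6% called lower. Of 20 satellite cell genes, surface proteins and signalling genes of the resting or activated cell, 9 were higher, 5 lower and 6 did not pass (median 0.21). After scaling to total counts 15 were higher and 4 lower (median 0.48). *Megf10*, a receptor of dividing satellite cells, was higher (log2 fold change 1.24, edgeR adjusted p = 0.000532). *Calcr*, the calcitonin receptor of resting satellite cells, fell by 1.08 (edgeR adjusted p = 0.00249) and *Chodl*, a C-type lectin, fell by 1.11 (edgeR adjusted p = 0.000730). *Calcr* was at 1.74, 1.73 and 1.63 CPM in WT and at 0.91, 0.80 and 0.70 CPM in GPR174-KO, without overlap. Several genes on this list, such as *Itgb1*, *Cav1* and *Dag1*, are also expressed by other cells of muscle.

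Of 15 genes tested that act upstream of the myogenic factors, 3 were higher, 6 lower and 6 did not pass (median -0.23). The homeobox gene *Lbx1*, of migrating limb muscle precursors, fell by 0.86 (edgeR adjusted p = 0.00334). *Msc* (musculin), a bHLH repressor, was higher by 1.04 (edgeR adjusted p = 0.00104) and *Eya2*, of the eyes absent family of transcriptional cofactors, by 0.85 (edgeR adjusted p = 0.00437). Among 23 partners and inhibitors of the bHLH factors 8 were higher, 5 lower and 10 did not pass (median -0.05), and without WT replicate 2 the number called dropped from 13 to 8. *Snai1*, a repressor that binds E-boxes, was higher by 1.17 (edgeR adjusted p = 0.00137), and *Hes6*, which favours differentiation, was higher by 0.83 (edgeR adjusted p = 0.00189). *Smarcd3*, a subunit of the chromatin remodelling complex that MYOD1 recruits, fell by 0.83 (edgeR adjusted p = 0.00274).

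Of 22 genes tested of the MEF2 family with its cofactors and class IIa deacetylases 6 were higher, 10 lower and 6 did not pass (median -0.17). *Tead4* and *Vgll3*, of the TEAD and vestigial-like families, were both higher by 0.81 (edgeR adjusted p = 0.000758 and 0.00407), while *Vgll2*, the vestigial-like gene of skeletal muscle, fell by 0.75 (edgeR adjusted p = 0.00691). The fall in *Vgll2* was smaller after scaling to total counts (-0.48, edgeR adjusted p = 0.0463) and did not pass in limma fits of FPKM (-0.45 in both, limma adjusted p = 0.0583 and 0.0595). *Vgll2* was at 154, 184 and 235 CPM in WT and at 124, 115 and 103 CPM in GPR174-KO. After scaling to total counts the medians of the upstream genes, of the bHLH partners and inhibitors and of the MEF2 list turned positive (0.05, 0.22 and 0.10), so no direction is given for these 3 lists.

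Of 21 myoblast fusion genes tested 11 were higher, 3 lower and 7 did not pass (median 0.16), and after scaling to total counts 17 were higher and 2 lower (median 0.43). Beside *Mymx*, *Cdh2*, the N-cadherin gene, was higher by 1.28 (edgeR adjusted p = 0.00210) and *Myof*, the myoferlin gene, by 1.27 (edgeR adjusted p = 0.00189). *Myof* was at 48.8, 64.8 and 84.5 CPM in WT and at 158, 160.5 and 160.5 CPM in GPR174-KO. Of 24 early differentiation targets 9 were higher, 5 lower and 10 did not pass (median 0.19), and after scaling to total counts 14 were higher and 2 lower (median 0.45). *Chrng*, the acetylcholine receptor subunit of immature or denervated muscle, was higher by 1.68 (edgeR adjusted p = 0.000900), *Tnnt2*, the embryonic and cardiac troponin T, by 1.30 (edgeR adjusted p = 0.00220) and *Chrna1*, another receptor subunit, by 1.14 (edgeR adjusted p = 0.000449). *Chrng* was at 17.5, 23.0 and 29.8 CPM in WT and at 74.3, 73.6 and 78.6 CPM in GPR174-KO. The embryonic myosin gene *Myh3*, named after its values were seen, had 7844, 17142 and 32078 counts in WT and 42863, 42339 and 41050 in GPR174-KO, and with that spread it did not pass (log2 fold change 0.85, edgeR adjusted p = 0.124).

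**Figure D4:**
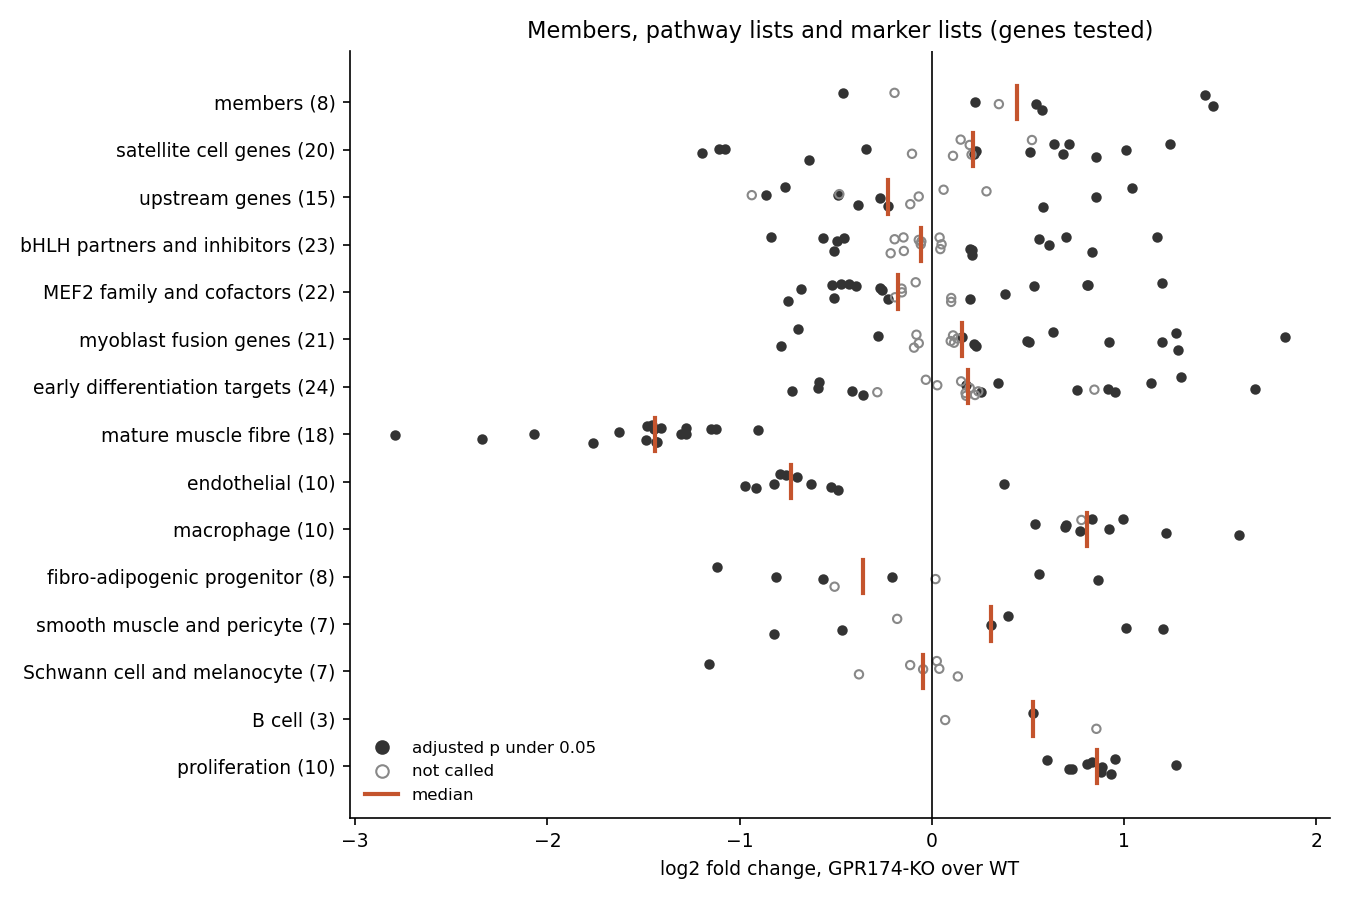
Log2 fold change, GPR174-KO over WT, of every tested gene of the members, the 6 pathway lists and the marker lists, with the number tested in brackets. Filled points passed an adjusted p of 0.05 and open points did not, and the orange line is the median. The mature fibre genes lie between -2.80 and -0.90, and the pathway lists spread to both sides of 0.

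Markers of several cell types differed between genotypes. Whether the makeup of the muscle pieces differed was not measured, and the part of makeup in the results above was not tested. All 18 mature muscle fibre genes were lower in GPR174-KO (median -1.44) and took up 19.7, 17.9 and 15.1% of counts in the WT libraries and 8.50, 8.23 and 7.80% in the GPR174-KO libraries. Within WT, *Myog* and *Mymk* were lowest in the library with the largest fibre share and highest in the library with the smallest. Within GPR174-KO, *Myog* was highest in the library with the largest fibre share and lowest in the library with the smallest. *Mymk* had that order in TMM-scaled CPM (233, 229 and 226) and the opposite order in FPKM (192.0, 192.9 and 194.9), so no order is given for *Mymk* within GPR174-KO. All 10 proliferation genes were higher (median 0.86), with summed levels of 188 to 226 CPM in WT and 351 to 376 CPM in GPR174-KO. Macrophage markers were higher for 9 of 10 (median 0.81, 1444 to 2239 CPM against 3372 to 3434 CPM), and endothelial markers lower for 9 of 10 (median -0.73, 1077 to 1264 CPM against 684 to 774 CPM). Fibro-adipogenic progenitor markers were split, with 2 of 8 higher and 4 lower (12090 to 17090 CPM against 20810 to 23820 CPM, mostly *Col1a1* and *Col3a1*), as were smooth muscle and pericyte markers, with 4 of 7 higher and 2 lower (1014 to 1030 CPM against 1185 to 1343 CPM). Schwann cell and melanocyte markers were lower for 1 of 7 tested (52.8 to 80.8 CPM against 45.7 to 61.5 CPM) and B cell markers higher for 1 of 3 tested (12.4 to 15.2 CPM against 16.7 to 20.2 CPM). No marker on these lists was at 0 in all libraries.

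Replicate 2 lay between replicates 1 and 3 in 77.1% of 9972 well expressed genes in WT and in 68.2% in GPR174-KO, and for 7 and 8 of the 8 tested members. Among unrelated libraries each of the 3 is as likely as the others to lie in the middle. In GPR174-KO, *Mymk* counts (4871, 4870 and 4869) and the Myog/Myod1 ratio were closer together than sampling of reads alone would usually leave them. These 2 were singled out after their values were seen. Whether the libraries of a group are independent was not tested, and the SDs, SEs and p-values given here take them as independent. With replicates 1 and 3 alone, 0 members and 0 genes passed edgeR's test, with an unadjusted p below 0.05 for 5 members and for 5026 genes.

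The profile over the 6 libraries most like that of each of 3 members was sought among 9972 genes with a mean of at least 10 CPM, by the Euclidean distance between centred log2 CPM. Nearest to *Myog* were *Sox11* (distance 0.0856), *Slc7a5* (0.0977) and *Loxl3* (0.146). Nearest to *Pax7* were *Mt1* (0.0579), *Itgal* (0.0774) and *Tlr7* (0.0831), and nearest to *Mef2c* were *Ppm1a* (0.0393), *Eci2* (0.0435) and *Nol7* (0.0459). *Sox11* was at 9.83, 12.6 and 18.0 CPM in WT and at 38.8, 36.3 and 35.1 CPM in GPR174-KO. Its libraries lay in the same order as for *Myog*, which follows largely from its choice by likeness over these same libraries.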

How the data were processed

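RNA was extracted from muscle with Trizol and made into libraries with a TruSeq kit, per the labels, and was sequenced on a BGISEQ-500, per the study's methods. The submitters' processing notes name HISAT2 2.0.4, Bowtie2 2.2.5, RSEM 1.2.12 and GRCm39. Strand use in counting is not given in the sources used here. The authors deposited unnormalized expected counts (RSEM's estimate of the reads of each transcript) for 58843 RefSeq transcripts. The authors also deposited FPKM and TPM, scaled for transcript length and library size. The deposited table's group mean columns were not used.

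Expected counts were summed per Entrez gene and rounded, with symbols for 99.7% of 18089 genes. Libraries were compared with edgeR 4.0.16 in R 4.3.3 (TMM scaling, filterByExpr, and the quasi-likelihood F-test with robust settings), with Benjamini-Hochberg adjustment over 14395 genes tested. DEGseq, named in the methods for an adjusted p of 0.05 and a log2 fold change of 1, was not used. SE is the absolute log2 fold change divided by the square root of F. Ratios used counts with 0.5 added. At these library totals 3 counts, the floor, are 0.155 to 0.163 CPM, and floors cover counting error only. The methods give 3 mice per group and the labels do not tie libraries to animals, so p-values cover the spread between these libraries. Reads shared by paralogs were divided by estimation. RefSeq promoters and GENCODE M21 are on GRCm38 and were used only for sequences, names and neighbours.

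The members and lists were chosen with earlier results of these data known. Named genes are the members, *Gpr174*, *Mymx*, *Mef2b* and *Mef2d*, the 3 called genes of each pathway list with the largest change (mean CPM 1 or more), and the 3 nearest profiles to *Pax7*, *Myog* and *Mef2c* (mean CPM 10 or more). The alternatives were DESeq2 1.42.0, RLE and total-count scaling, TMM without mature fibre genes, no filter, a minimum of 10 counts per library, limma 3.58.1 with voom, limma on log2 FPKM with a pseudocount of 1 or 0.1 (FPKM 1 or more in 3 libraries), a replicate block, a test against a 1.2-fold change, leaving out each library, and 2 replicates per group. The edgeR, DESeq2 and voom fits were also run on simulated counts with known changes, drawn independently with a single dispersion for all genes. Those counts lacked the ordered replicates and the wide share of changed genes seen here.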

Additional observations from a re-analysis of the deposited data

How the results depend on the processing

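Of 20 alternatives for each gene, *Myod1*, *Myog*, *Mymk* and *Mef2c* passed in 19, failing only with replicates 1 and 3 of each group, *Myf5* in 17, *Mef2a* in 11, *Pax7* in 9 and *Myf6* in 2. The members called numbered 6, with 4 to 7 when a library was left out and 0 with replicates 1 and 3 only. Called genes numbered 7863 of 14395, with 5457 to 9165 when a library was left out, 4275 against a 1.2-fold change and 0 with replicates 1 and 3 only. Called pathway genes numbered 80, with 61 to 99 when a library was left out, 53 against a 1.2-fold change and 0 with replicates 1 and 3 only. With replicates 1 and 2 only, 7 members and 9153 genes passed, and with replicates 2 and 3 only, 7 members and 5965 genes; why replicates 1 and 3 gave 0 was not tested. *Myf6* turned from -0.19 to 0.080 with total-count scaling and to 0.072 in both FPKM fits, and *Mef2d* from -0.26 to 0.017 and, in the FPKM fits, 0.020. These settings move the median of all genes up by 0.27, 0.23 and 0.27. The log2 difference in Mymk/Myog, 0.04, was -0.0066 to 0.076 when a library was left out and -0.027 with replicates 1 and 2 only, and the cause was not tested.

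Same-numbered libraries did not deviate together from their group means (correlations of 0.008, 0.050 and 0.005). These values gave no sign of pairing by number but cannot exclude it. With a replicate block 6 members, 72 pathway genes and 6812 genes passed, with *Pax7* gained (adjusted p = 0.0134) and *Mef2a* lost (adjusted p = 0.0857) by edgeR's test. Depth limits *Pax3*, and the size of the difference in *Mef2b*, at or near the floor of 3 counts.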
